A study of Mus musculus with 24 samples.

Results

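The receptors for GABA and glutamate, the main inhibitory and excitatory transmitters of the cortex, are built from a fixed set of gene families. Members were chosen by gene symbol: every GABA-A, GABA-A rho and GABA-B subunit and every AMPA, kainate, delta, NMDA and metabotropic glutamate receptor gene. The symbols matched 47 of 43346 genes in the deposited count table, 21 for GABA receptors and 26 for glutamate receptors. Of these, 44 reached 10 or more counts in at least 6 of 24 libraries, and the same 44 entered the tests. The other three, Gabrp, Gabrr3 and Grm6, never exceeded 2, 9 and 7 counts in a library and are not described further.

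The study asked how Abca7, a lipid transporter gene, relates to inflammation of the brain. Cortex RNA of 24 mice was sequenced in 4 groups of 6: mice labelled control or Abca7, each either left without a stimulus or given LPS, a bacterial cell wall component that sets off innate immune signalling. The design text describes the mice labelled Abca7 as heterozygotes and LPS as injected. The series title speaks of haplodeficiency. No source here states how the allele was made, the genetic background, the sex, or the dose, route and timing of LPS. Mice given LPS were 54 to 56 days old and the others 55 to 58 days old. Each library was taken as 1 mouse, and replicate numbers only name libraries.

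GABA-A receptors are chloride channels of 5 subunits, usually with alpha, beta and a gamma or delta subunit, and rho subunits form channels of their own. GABA-B receptors are pairs of G-protein-coupled subunits. AMPA, kainate and NMDA receptors are cation channels of 4 subunits, while metabotropic glutamate receptors act through G proteins. Delta subunits are related to the channel families and serve as synaptic organisers.

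Libraries held 48149131 to 75741388 counts, and the 47 members took 0.591 to 0.665% of them. Abca7 itself stood at 28.6 ± 2.22 CPM (TMM-scaled; mean ± SD, n = 6) in unstimulated control mice, with a range of 26.6 to 32.2. It stood at 32.1 ± 2.07 (29.9 to 34.8) in unstimulated mice labelled Abca7, at 24.5 ± 2.66 (20.6 to 27.1) in control mice under LPS and at 29.4 ± 2.30 (25.2 to 31.5) in labelled mice under LPS. The mean was thus higher, not lower, in the mice labelled Abca7, so that the level of this gene did not check the genotype label. Where the allele alters the gene is not stated, and counts outside an altered part would check nothing. Genotype labels are used below as labels only. Summed neuron markers ranged from 6560 to 7450 CPM over all libraries, and the cortical excitatory list, the interneuron list and the other marker lists had no gene at 0 in any library.

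Levels were compared between genes only per length, as CPM per kilobase of the gene model in the deposited table. Among the members described, Gabbr1, the ligand-binding subunit of the GABA-B receptor, was highest at 85.4 CPM per kilobase over all libraries. The AMPA subunit Gria1 stood at 58.8, the kainate subunit Grik5 at 53.0, Gabbr2 at 50.4 and Grin1, the obligatory NMDA subunit, at 49.0. GENCODE M21 gives Grik5 5168 exon bases against 3836 and Gabbr2 6686 against 5849, so the places of these 2 rest on the table's gene models. In that annotation 13.5% of the exon bases of Grin1 are shared with Grin1os. As the strand setting is not stated, part of its counts cannot be assigned with certainty. Of the 47 members 8 share over 5% of their exon bases with another gene. Gria2, which makes AMPA receptors nearly impermeable to calcium, stood at 46.8. At the low end were Gabrr2 at 0.559 and Gabre at 0.203 CPM per kilobase, followed by Gabra6, a subunit known from cerebellar granule cells, at 0.102 and Gabrr1 at 0.0593.

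**Figure D1:**
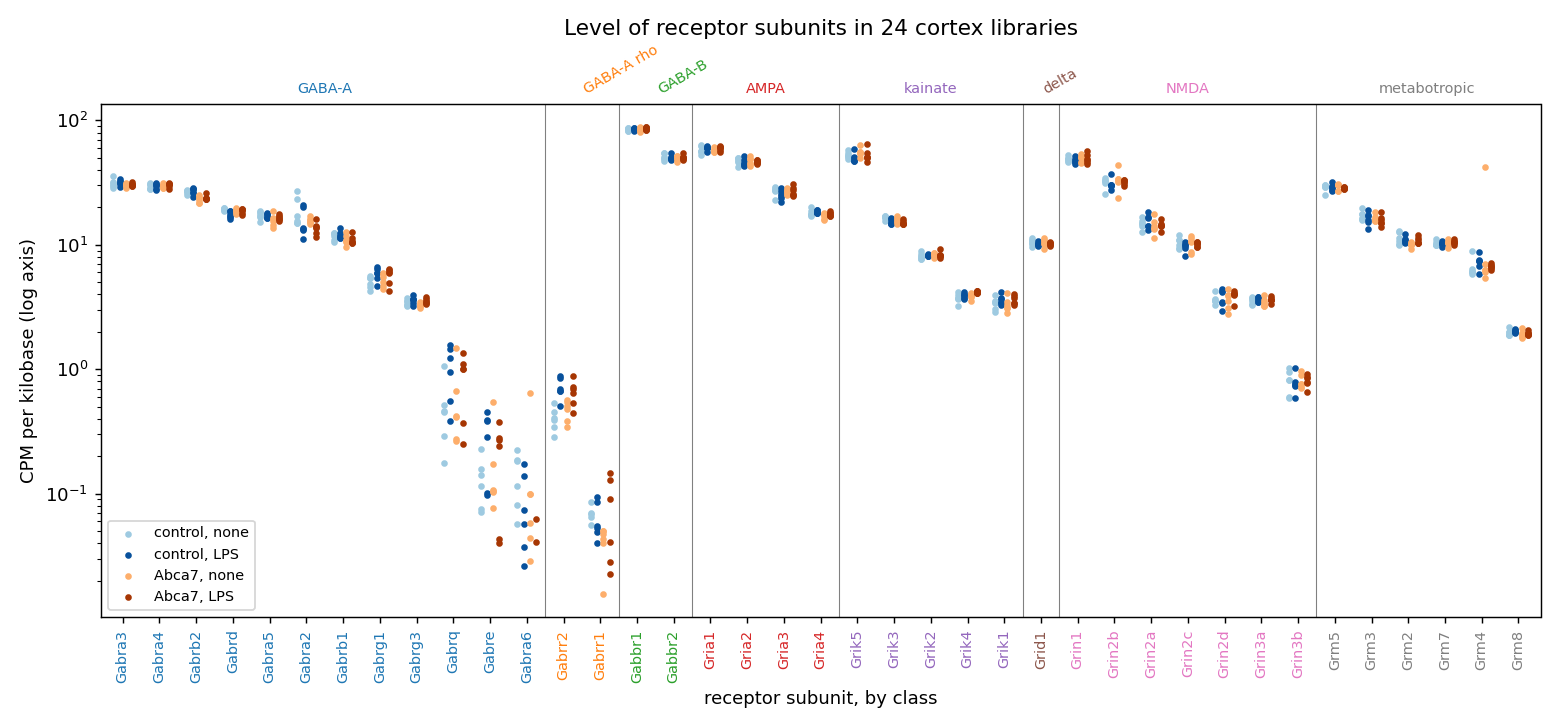
CPM per kilobase on a log axis for 39 receptor subunits, ordered by class and level, with 1 point per library and colours for the 4 groups; libraries at 0 are not drawn. Gabbr1 and Gria1 lead at 85.4 and 58.8, Gabra6 and Gabrr1 lie lowest, and 1 unstimulated library labelled Abca7 stands far above the others for Grm4.

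Highly expressed members of several classes are given in all 4 groups. Gabbr1 measured 661.6 ± 14.6 CPM in unstimulated controls, 662.4 ± 14.99 in controls under LPS, 658.5 ± 21.8 in unstimulated mice labelled Abca7 and 668.6 ± 14.5 in labelled mice under LPS (SD, n = 6 in each group here and below). In the same order, Gria1 measured 349.7 ± 23.9, 361.9 ± 15.5, 348.6 ± 11.1 and 360.9 ± 15.98 CPM. The differences between these means were of the size of the SDs.

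Grik5, a kainate subunit that needs a partner subunit to form a channel, measured 203.2 ± 12.3, 193.4 ± 17.2, 213.6 ± 16.5 and 202.5 ± 24.2 CPM in that order. Grin1 measured 475.9 ± 20.5, 464.9 ± 25.7, 481.0 ± 28.1 and 479.9 ± 41.5 CPM. Grm5, a metabotropic receptor coupled to phospholipase C, measured 230.4 ± 14.7, 231.9 ± 14.1, 233.7 ± 13.97 and 228.9 ± 4.14 CPM. Grid1, a delta subunit, measured 64.0 ± 3.74, 62.2 ± 1.87, 63.5 ± 4.42 and 62.1 ± 1.77 CPM. None of these 6 genes passed the test in an LPS contrast.

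Ratios between subunits of a class are free of library scaling and were described without a test. Grin2a to Grin2b, the NMDA pair whose balance shifts as the cortex matures, had a log2 count ratio of -3.33 ± 0.08 in unstimulated controls and -3.23 ± 0.13 in controls under LPS. It was -3.44 ± 0.12 and -3.38 ± 0.11 in mice labelled Abca7 without and with LPS. Per length of the table's gene models this is 0.468 ± 0.0258 in unstimulated controls, where the Grin2a model has 5296 bases and the Grin2b model 24773, so the value rests on those models. With the GENCODE M21 exon lengths of 17933 and 24842 bases it would be 0.138 ± 0.00764. Gria1 to Gria2 ranged between group means of -1.08 and -0.985 on the log2 scale.

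LPS changed few receptor subunits, and most of the changes were small. In control mice 2 members rose, Gabrr2 among them, and 2 fell, Gabrd and Grik3. These 4 of 44 members (9.09%) stand beside 17.3% of the 21891 genes tested (9.39% higher, 7.92% lower) that were called at an adjusted p under 0.05 (edgeR quasi-likelihood F test, two-sided, Benjamini-Hochberg adjustment over all genes). In mice labelled Abca7 only Gabra6 was called, 1 of 44 beside 11.8% of all genes (6.65% higher, 5.18% lower), and 0 members had groups that did not overlap, beside 3.49% of all genes higher and 2.24% lower. In the LPS effect averaged over both labels 6 members were called, 3 up and 3 down, which is 13.6% beside 26.2% of all genes. All 24 libraries entered 1 fit. The averaged contrast uses the same libraries as the other 2 and is not a separate result. RNA of a whole tissue does not tell fewer cells of a type from less RNA per cell.

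The median log2 fold change of the 44 members was 0.009 in control mice, 0.023 in mice labelled Abca7 and 0.014 averaged, where the median of all genes was 0.0051, 0.0052 and 0.0054. Of the members, 33 had an averaged difference under 0.1 on the log2 scale in size. The 95% confidence interval of the LPS difference lay between 20% lower and 25% higher for 35 of 44 members in control mice, 36 in labelled mice and 37 averaged. Among all genes tested that share was 52.4, 54.2 and 61.3%. Members and all genes differ in level, which was not matched here. Of the 38 members with a mean of at least 10 CPM, 36 lay within those bounds in the averaged contrast; Gabra2 and Grm4 had wider intervals. Signs were the same in control and labelled mice, which share no library, for 34 of 44 members (77.3%) and for 75.0% of all genes.

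**Figure D2:**
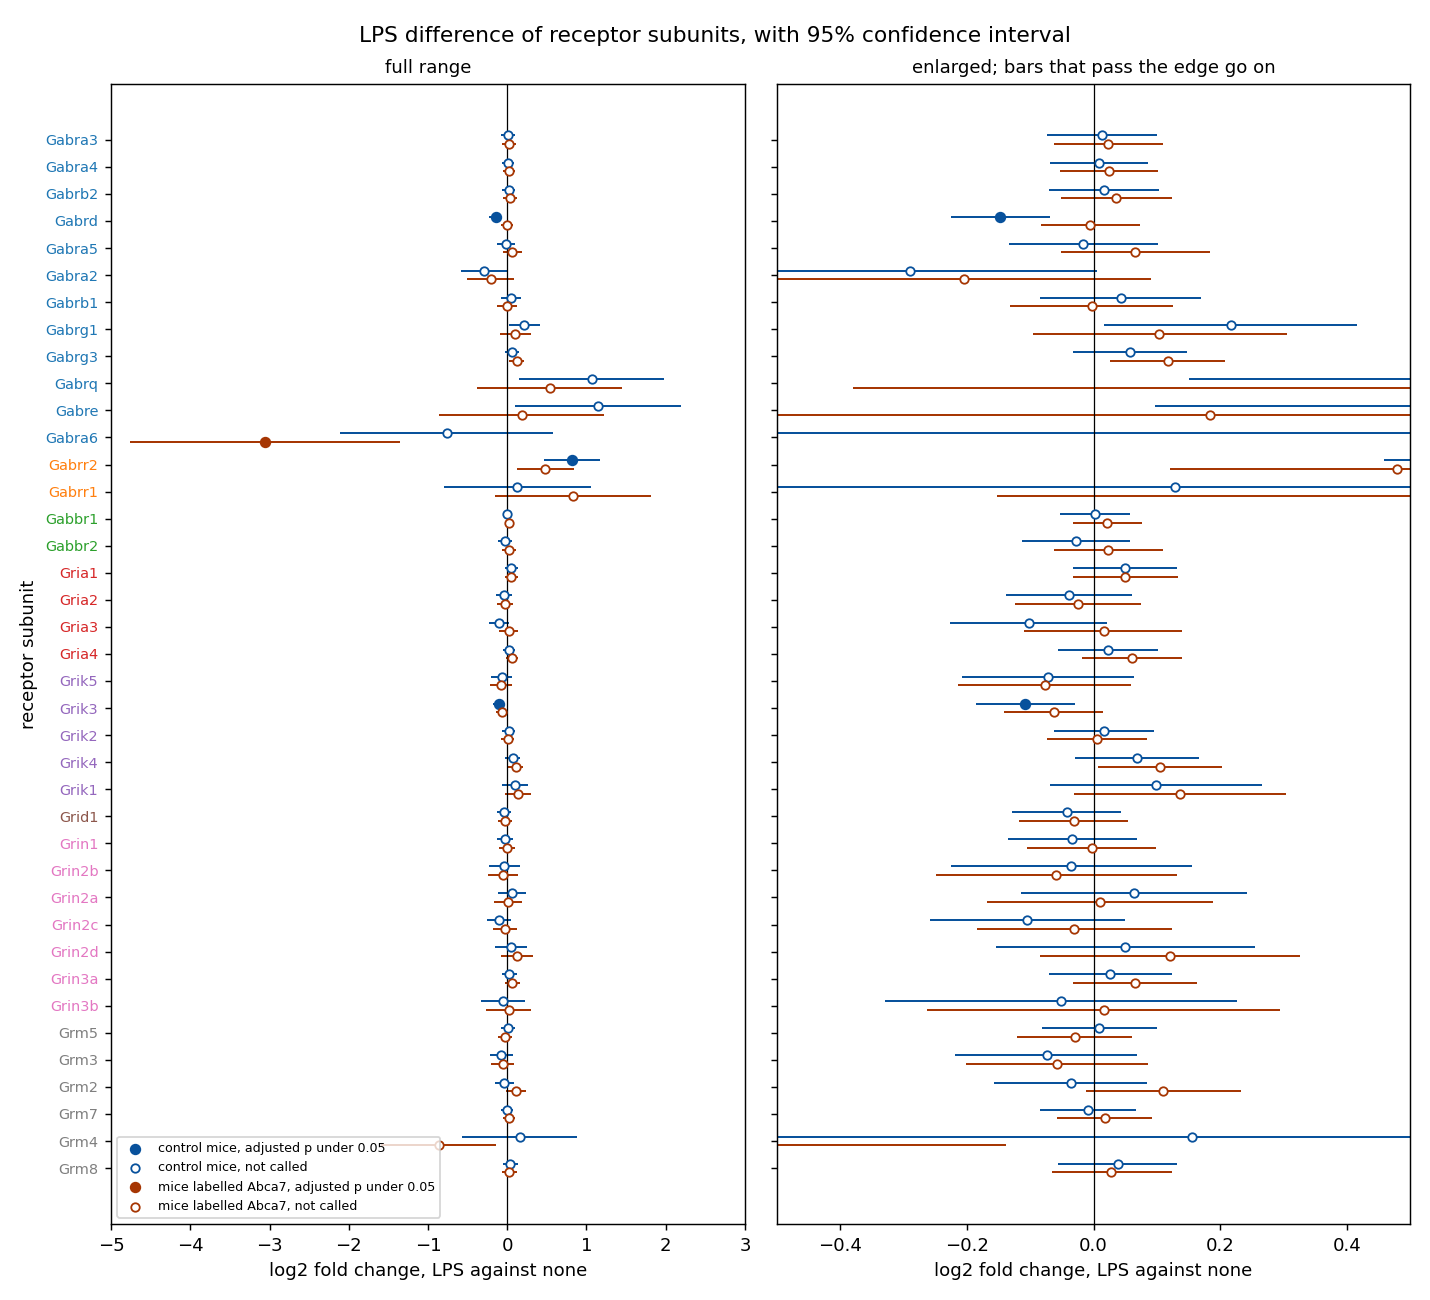
Log2 fold change of 39 subunits, LPS against none, in control mice (blue) and mice labelled Abca7 (brown) with 95% confidence intervals; filled points have an adjusted p under 0.05, and the right panel enlarges the same values. Gabrr2, Gabrd and Grik3 are filled in control mice and Gabra6 in labelled mice, while most other points lie close to 0 with short bars.

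Among the inhibitory receptor genes, Gabrr2, which encodes a rho subunit and lies at chr4:33062999-33095865 (mm10), rose in control mice. In unstimulated controls its lowest, median and highest values were 0.603, 0.840 and 1.13 CPM, and in controls under LPS 1.06, 1.44 and 1.85 CPM. In mice labelled Abca7 the values were 0.719, 1.03 and 1.18 CPM without and 0.930, 1.41 and 1.87 CPM with LPS. Only 1 unstimulated control library reached the range of the LPS controls, while the labelled groups overlapped more.

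The log2 fold change of Gabrr2 was 0.815 ± 0.174 (SE; adjusted p = 0.0011) in control mice and 0.48 ± 0.17 (adjusted p = 0.0766) in labelled mice. Averaged over labels it was 0.65 ± 0.12, a 1.57-fold level (adjusted p = 0.000197). The test of the difference between the LPS effects of the 2 labels gave -0.34 ± 0.25 (adjusted p = 1), so the effects were not shown to differ. Gabrr2 had 30 to 137 counts a library. Its neighbour Gabrr1 had at most 17 counts in a library and an averaged difference of 0.48 ± 0.33 (adjusted p = 0.312).

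Gabrd encodes the delta subunit of GABA-A receptors outside synapses, which give steady inhibition. It fell in control mice, from 54.2, 55.9 and 57.0 CPM (lowest, median, highest) without LPS to 46.2, 49.97 and 54.1 CPM with LPS. Every LPS control lay below every unstimulated control. It was the 1 member lower without overlap in control mice, as were 3.69% of all genes, and 1 member was higher without overlap, as were 5.38%. The fold change was -0.147 ± 0.038 (adjusted p = 0.00667).

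In mice labelled Abca7 Gabrd measured 51.0, 53.9 and 56.4 CPM without and 49.8, 54.6 and 55.4 CPM with LPS, with a difference of -0.005 (adjusted p = 0.967). The difference between the 2 LPS effects was 0.14 ± 0.05, with an unadjusted p of 0.0137 and an adjusted p of 1. The call in one label alone therefore does not show that the labels differ. The averaged fold change was -0.076 ± 0.027 (adjusted p = 0.0382), and leaving out any 1 of 11 libraries ended that call. So did age as a factor (-0.077, adjusted p = 0.0711).

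Gabrg3, 1 of the 3 gamma subunit genes, rose by 0.087 ± 0.031 averaged over labels (adjusted p = 0.0398). It measured 38.8, 41.1 and 44.6 CPM (lowest, median, highest) in unstimulated controls and 38.7, 43.5 and 47.1 CPM in controls under LPS. In mice labelled Abca7 it measured 36.8, 38.7 and 41.3 CPM without and 40.0, 42.2 and 45.2 CPM with LPS. All 4 groups overlapped, and the call ended when any 1 of 14 libraries was left out or with age as a factor (0.086, adjusted p = 0.0989). Gabra5, its neighbour on chromosome 7, had an averaged difference of 0.025 ± 0.040.

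Gabra6 had few counts in cortex. Unstimulated controls held 8 to 32 counts a library and controls under LPS 5 to 23. Unstimulated mice labelled Abca7 held 4 to 70, and labelled mice under LPS 0 to 8, with 4 of 6 libraries at 0. A count of 0 allows up to 3 counts. The fold change was -3.06 ± 0.83 in labelled mice (adjusted p = 0.0128) and -0.76 in control mice (adjusted p = 0.487). The call in labelled mice rested on 1 library: unstimulated labelled replicate 1, the only mouse of 58 days, had 1.61 CPM where the next highest of its group had 0.249. Without it the fold change in labelled mice was -1.85 (adjusted p = 0.118). Averaged over labels the fold change was -1.91 (adjusted p = 0.0081). That averaged call held when any 1 library was left out (adjusted p of 0.00347 to 0.0308) and with age as a factor (-1.57, adjusted p = 0.0241). It was lost with thalamus markers, Ttr (-1.60, adjusted p = 0.0847) or surrogate variables in the model. The lowest, median and highest values were 0.142, 0.374 and 0.554 CPM in unstimulated controls and 0.0653, 0.164 and 0.427 CPM in controls under LPS, and the groups overlapped.

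Among the excitatory receptor genes, Grik3, a kainate subunit of low glutamate affinity, fell in control mice, from 140.6, 150.1 and 152.9 CPM to 131.1, 136.4 and 148.3 CPM. The groups overlapped, and the fold change was -0.108 ± 0.038 (adjusted p = 0.0478). Leaving out any 1 of 9 of the 12 libraries ended that call. In labelled mice Grik3 measured 131.9, 142.2 and 153.4 CPM without and 131.3, 134.2 and 144.5 CPM with LPS, a difference of -0.063 ± 0.038 (adjusted p = 0.337). Averaged over labels it fell by 0.086 ± 0.027 (adjusted p = 0.0179). With age as a factor, which differed between the stimulus groups, neither call of Grik3 held: -0.103 (adjusted p = 0.0707) in control mice and -0.068 (adjusted p = 0.127) averaged.

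None of the 4 AMPA genes was called, and their averaged differences lay between -0.043 and 0.050. None of the 7 NMDA genes was called, with differences from -0.068 to 0.085, and all 7 intervals lay between 20% lower and 25% higher. None of the 7 tested metabotropic genes was called; Grm4 had the lowest value, -0.36. Among the other kainate genes Grik4 came closest, at 0.087 ± 0.034 (adjusted p = 0.0584). Both GABA-B genes were within 0.012 of 0 on the log2 scale.

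**Figure D3:**
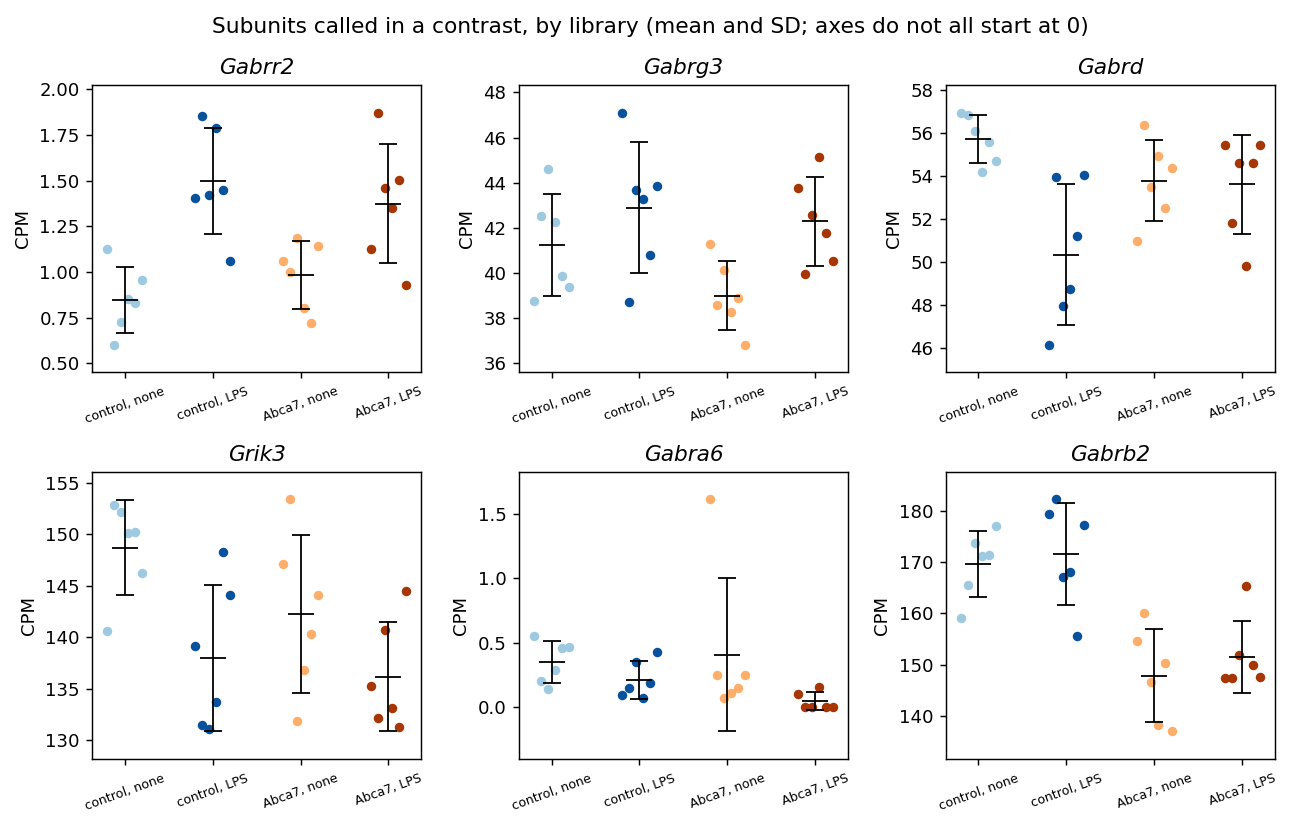
CPM in each of 24 libraries for 6 subunits called in a contrast; horizontal marks and bars are mean and SD (n = 6), and axes do not all start at 0. Gabrr2 lies higher and Gabrd lower under LPS in controls, Gabra6 is near 0 with 1 high library, and Gabrb2 lies lower in both groups labelled Abca7.

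The promoter stretches of a subunit that rose and of one that fell are shown as examples of members that passed the test. They come from RefSeq windows on GRCm38.p6 (the mm10 build), cut to the bases before the gene start of the deposited table. Windows of 250 bases were at hand for 32 of the 47 members, 39 windows in all. Capitals mark bases inside a match to the kappa B motif (GGG, 5 bases of any kind, then CC), a loose form of the NF-kB site, to TTCNNNGAA, the STAT site named GAS, or to GGGCGG, the GC box, searched on both strands with overlaps counted. Gabrr2, chr4:33062862-33062998, plus strand, has 137 bases:
Gabrr2: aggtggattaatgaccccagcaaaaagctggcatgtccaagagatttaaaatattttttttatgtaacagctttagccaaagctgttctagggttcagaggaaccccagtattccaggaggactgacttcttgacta
Grik3, chr4:125490446-125490695, plus strand, has 250 bases:
Grik3: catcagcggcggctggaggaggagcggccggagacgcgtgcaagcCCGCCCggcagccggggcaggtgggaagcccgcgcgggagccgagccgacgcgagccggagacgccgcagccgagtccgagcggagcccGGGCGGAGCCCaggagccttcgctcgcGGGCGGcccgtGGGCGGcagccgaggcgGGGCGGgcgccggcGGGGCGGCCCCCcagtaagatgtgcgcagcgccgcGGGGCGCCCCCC
The stretch of Gabrr2, which rose, held no match. That of Grik3, which fell, held 8 matches to the kappa B motif and 6 to GGGCGG, many of them overlapping. The window of Gabrg3, which rose, held 2 kappa B and 1 GC box matches, and that of Gabra6, which fell, 1 kappa B and 1 GAS match. The kappa B motif was found in 45.8% of all 32851 windows and in 20 of the 39 member windows, GGGCGG in 32.7% and 18, and TTCNNNGAA in 7.02% and 2. A match is a description of the letters only. For Gabrb2 the windows lie inside the gene and are not shown.

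No member was called between the genotype labels within a stimulus. Without LPS 0 of 44 members passed, beside 0.032% of all genes (0.0137% higher, 0.0183% lower), and 7 of 44 (15.9%) had an unadjusted p under 0.05 (edgeR), as had 6.51% of all genes. Under LPS 0 of 44 passed, beside 0% of all genes, with 5 of 44 (11.4%) at an unadjusted p under 0.05, beside 7.99%. No member had groups that did not overlap between the labels, where 0.142% of all genes were higher and 0.119% lower without overlap in unstimulated mice, and 0.201% and 0.224% under LPS. The interaction gave 0 of 44 beside 0% of all genes, with 2 of 44 (4.55%) at an unadjusted p under 0.05, beside 3.40%. DESeq2, run as a second tool, called 1 member in each of the first 2 contrasts, Gabrb2 both times, with adjusted p of 0.013 and 0.0396. The shares of all genes above are those of edgeR, and the share that DESeq2 called in these contrasts is not given here. Signs of the genotype difference without and under LPS, from separate libraries, were the same for 27 of 44 members (61.4%) and for 59.4% of all genes.

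Gabrb2 encodes a beta subunit of synaptic GABA-A receptors and lies at chr11:42419757-42629028 (mm10). Its lowest, median and highest values were 159.0, 171.3 and 177.1 CPM in unstimulated controls and 155.6, 172.7 and 182.2 CPM in controls under LPS. In mice labelled Abca7 they were 137.0, 148.5 and 160.1 CPM without and 147.3, 148.7 and 165.3 CPM with LPS. Of the 12 labelled libraries, 10 lay below the lowest of the 12 control libraries.

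The genotype difference of Gabrb2 was -0.198 ± 0.042 without LPS (adjusted p = 0.138) and -0.179 ± 0.042 under LPS (adjusted p = 0.267), so each contrast alone failed the correction. The genotype difference averaged over both stimuli was added after the data were seen. In it Gabrb2 was lower by 12.3% in mice labelled Abca7 (-0.189 ± 0.030, adjusted p = 0.00395). It was the only one of 44 members called, where 0.26% of all genes were called (0.146% higher, 0.114% lower). Because Abca7 itself was not lower in these mice, the direction is that between libraries as labelled.

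Neither the neuron list nor the interneuron list had a gene called in the genotype difference averaged over both stimuli, and their median differences were -0.028 and -0.030. Other marker lists were less even, with no gene called. All 5 olfactory bulb markers were lower in labelled mice with an unadjusted p under 0.05 and a median of -1.10. Their sums were 11.5 to 94.7 CPM in unstimulated controls, 13.0 to 94.9 in controls under LPS, 11.8 to 24.7 in unstimulated labelled mice and 22.2 to 42.5 in labelled mice under LPS. Of 8 choroid plexus markers 5 had an unadjusted p under 0.05, with a median of 0.54. The averaged difference of Gabrb2 was -0.209 (adjusted p = 0.00239) with the olfactory bulb markers as a covariate, an alternative added after the data were seen. With Ttr as a covariate it was -0.168 (adjusted p = 0.018).

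Grin3b, an NMDA subunit gene at chr10:79970715-79977190 (mm10), ends 19.3 kb before the start of Abca7. It was called in no contrast. In the reference annotation 32.1% of its exon bases are shared with Tmem259, so that its 104 to 223 counts a library cannot be assigned to it with certainty.

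Other genes of the same synapses were described from lists, by the LPS effect averaged over labels. Among 24 postsynaptic density scaffolds and organisers 13 fell and 1 rose, beside 12.6% of all genes lower and 13.7% higher, with a median of -0.100. Homer1, a scaffold that links metabotropic receptors and is induced by activity, fell by 0.444 ± 0.058 (adjusted p = 8.55e-07). Nptx2, a secreted organiser of AMPA receptors, fell by 0.364 ± 0.071 (adjusted p = 0.000251). The scaffolds Shank1 and Shank3 fell by 0.205 ± 0.037 (adjusted p = 9.96e-05) and 0.138 ± 0.030 (adjusted p = 0.000874). The single riser was Nlgn1 at 0.124 ± 0.034 (adjusted p = 0.00709). The count of falling genes was 5 to 15 of 24 across the models with other covariates and DESeq2. With Ttr 5 fell (median -0.062, beside 8.1% of all genes lower), and with thalamus markers 7 (-0.029, beside 9.41%). Surrogate variables gave 7 (-0.044, beside 9.19%), neuron markers 15 (-0.082, beside 13.1%) and DESeq2 15 (-0.106, beside 14.3%). With age as a factor 9 fell (-0.079, beside 22% of all genes called in either direction). The size of the scaffold result therefore depended on the model. Of 10 markers of cortical excitatory neurons 4 also fell, with a median of -0.102 and sums of 1310 to 1550 CPM in unstimulated controls, 1210 to 1660 in controls under LPS, 1370 to 1640 in unstimulated labelled mice and 1270 to 1660 in labelled mice under LPS. Their part in the scaffold result was not tested.

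Of 18 AMPA and kainate receptor auxiliary proteins 4 fell and 1 rose, with a median of -0.037; these 27.8% are near the 26.2% of all genes called. Cacng3, an AMPA auxiliary protein, fell by 0.292 ± 0.058 (adjusted p = 0.000341). The kainate auxiliary proteins Neto2 and Neto1 fell by 0.146 ± 0.034 (adjusted p = 0.00177) and 0.133 ± 0.033 (adjusted p = 0.00338). Cacng5 rose by 0.48 ± 0.15 (adjusted p = 0.0196). That call was lost with the thalamus markers, Ttr, age or surrogate variables in the model.

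Of 8 genes of GABA synthesis, transport and breakdown 4 rose and 1 fell, with a median of 0.106, beside 13.7% of all genes higher and 12.6% lower. Abat, which breaks GABA down, rose by 0.140 ± 0.032 (adjusted p = 0.00139), and the glial transporter Slc6a11 by 0.41 ± 0.12 (adjusted p = 0.0154). Slc6a13, a GABA transporter known from the meninges and vessels, fell by 1.01 ± 0.10 (adjusted p = 5.54e-09). The meningeal fibroblast markers moved with it: 4 of 6 fell, from sums of 49.9 to 60.2 CPM without LPS to 34.1 to 45.3 CPM in controls, and their part in the result was not tested. With the thalamus markers as a covariate 1 of these 8 genes rose and 1 fell (25.0%, beside 19.7% of all genes). With Ttr as a covariate 1 rose and 1 fell as well (beside 17.3% of all genes).

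Of 15 GABA receptor partners and chloride transporters 3 rose and 1 fell, with a median of -0.007; these 26.7% are near the 26.2% of all genes called. Kctd8, a partner of the GABA-B receptor, rose by 0.239 ± 0.052 (adjusted p = 0.000951), and the chloride importer Slc12a2 rose by 0.221 ± 0.050 (adjusted p = 0.00144). Kctd16, another GABA-B partner, fell by 0.163 ± 0.053 (adjusted p = 0.0238), and Gabarapl2 rose by 0.071 ± 0.024 (adjusted p = 0.0279). In the fit with thalamus markers 2 of the 15 rose and 0 fell (13.3%, beside 19.7% of all genes).

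Of 12 genes of glutamate transport and recycling 1 rose and 2 fell, with a median of -0.047; these 25.0% are near the 26.2% of all genes called. The amino acid transporters Slc38a2 and Slc38a3 fell by 0.241 ± 0.052 (adjusted p = 0.00082) and 0.248 ± 0.056 (adjusted p = 0.00139). Slc17a6, the vesicular glutamate transporter typical of thalamus and brainstem, rose by 0.62 ± 0.19 (adjusted p = 0.014), a call lost with the thalamus markers, Ttr, age or surrogate variables in the model. Of 5 glycine receptor subunits 2 rose, Glra1 by 1.21 ± 0.36 (adjusted p = 0.0128) and Glra2 by 0.154 ± 0.051 (adjusted p = 0.0248), which is 40.0% beside 26.2% of all genes called. With the thalamus markers 0 were called, beside 19.7% of all genes. The same held with Ttr (beside 17.3%), age (beside 22%) and surrogate variables (beside 19.4%). With neuron markers or DESeq2 2 rose (beside 27.3 and 27.7%).

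**Figure D4:**
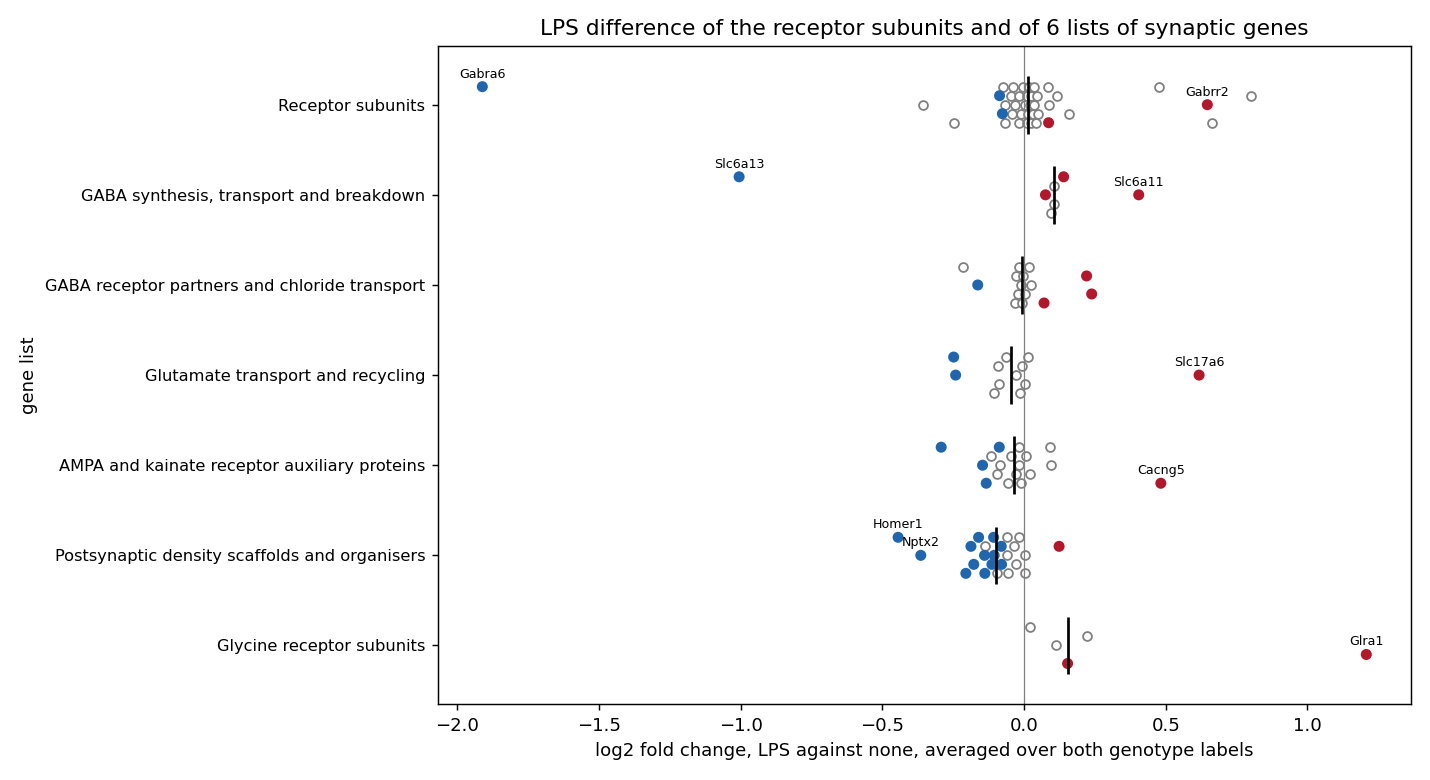
Log2 fold change, LPS against none, averaged over both genotype labels, for receptor subunits and 6 lists of synaptic genes; each point is 1 gene described, filled where the adjusted p is under 0.05 (red higher, blue lower), and the black bar is the median of the whole list. The scaffold list lies to the left of 0 with 13 of 24 lower, while most receptor subunits cluster around 0.

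Thalamus markers rose with LPS, and choroid plexus markers were called higher with LPS in control mice. The hippocampus and cerebellum lists had 0 genes called with LPS in either label. Of 8 thalamus markers 2 were called higher in control mice, 1 in labelled mice and 7 in the averaged contrast. The shares of all genes called higher were 9.39, 6.65 and 13.7% in that order. The thalamus markers summed to 90.5 to 241 CPM in unstimulated controls and 139 to 314 in controls under LPS. In labelled mice they summed to 81.6 to 206 without and 107 to 266 with LPS. Choroid plexus markers summed to 14.9 to 304 CPM (median 25.6) in unstimulated controls and 191 to 550 (median 294) under LPS. In labelled mice the sums were 60.6 to 503 (median 444) without and 36.4 to 434 (median 304) with LPS. Of 8 choroid plexus markers 5 were called higher with LPS in control mice, beside 9.39% of all genes, with a median log2 fold change of 1.41. In labelled mice all 8 were lower, with a median of -0.312 and 0 called. The interaction called 0 of 21891 genes, so these markers were not shown to respond differently between the labels. No thalamus or choroid plexus marker was at 0 in any library.

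With the thalamus marker level as a covariate, the averaged difference of Gabrr2 was 0.42 (adjusted p = 0.0377) and that of Gabrg3 0.12 (adjusted p = 0.0206). That of Grik3 was -0.020 (adjusted p = 0.669), that of Gabrd -0.078 (adjusted p = 0.112) and that of Gabra6 -1.63 (adjusted p = 0.0878). Gabra2, an alpha subunit, passed in that fit at -0.41 (adjusted p = 0.0105), from -0.25 (adjusted p = 0.0744) without the covariate, and Grm4 passed at -0.79 (adjusted p = 0.0214). With the choroid plexus gene Ttr as a covariate, Gabrr2 lost its call in control mice (0.58, adjusted p = 0.2), while in the averaged contrast it kept an adjusted p of 0.0111. Mean thalamus sums themselves differed by stimulus, at 135 and 222 CPM in controls without and with LPS and 126 and 199 in labelled mice. Mean choroid plexus sums were 70.2 and 329 CPM in controls and 359 and 285 in labelled mice, in the same order. These fits therefore cannot separate tissue from LPS, and the part of these tissues in the differences was not tested.

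The X-linked subunits Gabrq and Gabre, a pair of GABA-A genes known from monoaminergic and hypothalamic neurons, varied most among the members with over 10 counts in every library. Their within-group SD was 0.894 and 1.018 on the log2 scale, where the median of the 38 members with a mean of at least 10 CPM was 0.084. In control mice Gabrq went from 0.948, 2.44 and 5.73 CPM to 2.04, 5.84 and 8.33 CPM (lowest, median, highest), a difference of 1.07 ± 0.45 (adjusted p = 0.105). The 10 libraries with over 4 CPM of Gabrq had thalamus sums of 180 to 314 CPM, and the other 14 had 81.6 to 206. With the thalamus covariate the averaged difference of Gabrq was -0.17 (adjusted p = 0.695), from 0.80 (adjusted p = 0.0614) without it. The part of thalamus tissue in the difference was not tested.

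Grm4, a presynaptic metabotropic receptor known for its high level in cerebellar granule cells, had 1 library far from all others. Unstimulated labelled replicate 3 had 225 CPM, and the other libraries of its group 28.7 to 37.6, with a mean of 33.1 ± 3.18 (n = 5) without it and 65.1 ± 78.5 (n = 6) with it. The other 3 groups lay between 31.0 and 47.1 CPM. That library also had the highest Gabre, at 2.60 CPM, a hippocampus marker sum of 141 CPM, the highest of any library, and a thalamus sum of 180 CPM. Its cerebellum marker sum was 72.0 CPM, the highest of its group, while the highest of any library was 93.5 CPM. Its Gabra6 level, 0.0718 CPM, was the lowest of its group. What set this library apart was not tested. Gabra2 spread widely among controls, from 35.7 to 65.2 CPM without and 26.9 to 49.7 with LPS, but from 34.9 to 40.9 and 27.6 to 38.6 CPM in labelled mice.

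**Figure D5:**
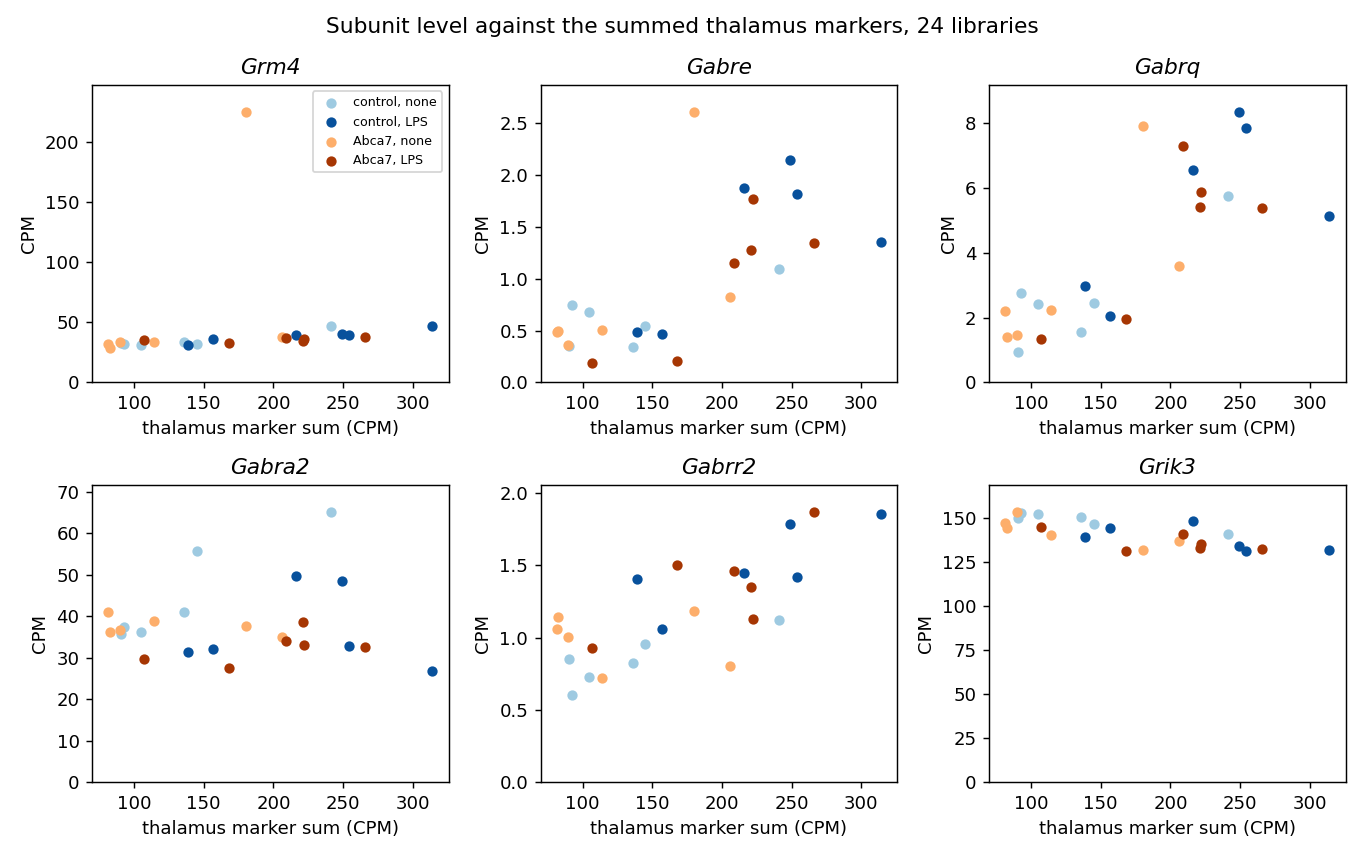
Level of 6 subunits (CPM) against the summed level of 8 thalamus markers (CPM) in 24 libraries, coloured by group. All 10 libraries with Gabrq over 4 CPM have thalamus sums of at least 180 CPM, and 1 library stands alone for Grm4 at 225 CPM.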

How the data were processed

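The deposited table holds raw read counts per gene made by the authors with MAP-RSeq 2.1.1, per the series' design text. Reads were aligned with STAR 2.5.2b to mm10, per the submitters' processing notes. No source here states the annotation release or the strand setting. Counts were tested with edgeR 4.0.16 (R 4.3.3): TMM factors, filterByExpr by group (21891 genes kept), 1 coefficient per group over 24 libraries, two-sided quasi-likelihood F tests, Benjamini-Hochberg adjustment over all genes, threshold 0.05. SE is the log2 fold change over the square root of F. CPM per kilobase uses the table's gene length. Per-library spread and SDs of log2 CPM use a prior count of 2. Genes were named by rule: every member called in a contrast, the highest member per length of each class, and up to 4 called genes of each synaptic list. Some members and genes of the lists enter every count but are not reported here by name. Members and lists were chosen with earlier results of these data known. Alternatives were RLE factors, no filter, DESeq2 1.42.0, age, Ttr, thalamus, neuron and (added after the data were seen) olfactory bulb marker covariates, surrogate variables (sva 3.50.0), only the groups compared, no rRNA genes, and leaving out each library. On simulated counts for the LPS effect in control mice (21656 genes), 49.0% of 98 genes changed 1.25-fold and 82.5% of 97 changed 2-fold were recovered. Exon overlap was read from GENCODE M21, in which all 47 members occur and 26 have the table's coordinates. Intervals cover 95%.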

Additional observations from a re-analysis of the deposited data

Results flagged for a closer look

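In 12 of 176 sets of 6 libraries (44 members in 4 groups), 1 library stood apart: its gap to the nearest library, as a share of the group's range, both on log2 CPM, was above Dixon's 95% critical value for 6 samples. Chance flags about 1 in 20 sets. Grm4 had the widest gap, 0.869, in unstimulated labelled replicate 3 (225 CPM, next 37.6), and 0.789 in unstimulated control replicate 1 (47.1 CPM, next 34.0). That control library was also the lowest of its group for Grm5 (0.771, 202 CPM, next 232), Gria3 (0.739, 226 CPM, next 269) and Grin2b (0.672, 633 CPM, next 778). Grin2b was also high in control LPS replicate 1 (0.677, 927 CPM, next 754).

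Gabrb2 was high in labelled LPS replicate 4 (0.736, 165 CPM, next 152), and Grin2d low in labelled LPS replicate 5 (0.736, 18.8 CPM, next 23.1). Grik5 was high in control LPS replicate 6 (0.652, 226 CPM, next 195). Gabra6 was high in unstimulated labelled replicate 1 (0.642, 1.61 CPM, next 0.249). The rarely counted Gabrr1 was low in unstimulated control replicate 2 (0.820, 0 CPM, next 0.129) and in unstimulated labelled replicate 5 (0.769, 0.0359 CPM, next 0.0912).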

How the results depend on the processing

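No called result changed direction under any alternative run; the uncalled averaged difference of Gabrq did with thalamus markers (-0.17). The count of members called for LPS in control mice (4) was 1 with Ttr as a covariate. In labelled mice (1, Gabra6) it was 0 with age as a factor and with only the groups compared. It was 2 with thalamus markers, olfactory bulb markers and surrogate variables. With thalamus markers Gabra6 itself lost its call (adjusted p = 0.0668), and the 2 were Gabrg3 (adjusted p = 0.0376) and Grm4 (adjusted p = 0.0107). With surrogate variables it lost its call as well (adjusted p = 0.539), and the 2 were Grin2b (adjusted p = 0.0266) and Grm4 (adjusted p = 0.0045). For genotype without LPS (0) it was 1 with age, with thalamus markers, with olfactory bulb markers and with DESeq2, and 2 with surrogate variables; under LPS (0) it was 1 with DESeq2. For genotype averaged over stimuli (1) it was 2 with age, with olfactory bulb markers and with surrogate variables. Leaving out 1 library at a time gave 3 to 5, 0 to 2 and 4 to 9 members for LPS in control, labelled and averaged, 0 to 1 for genotype without LPS, 0 to 0 under LPS and for the interaction, and 1 to 1 for genotype averaged. The 0 came without unstimulated labelled replicate 1, the 2 without unstimulated labelled replicate 3 or labelled LPS replicate 6 (adding Gabrr2), and the 1 for genotype without unstimulated control replicate 1 (Gabrb2, adjusted p = 0.0266). Averaged Gabrb2 kept adjusted p of 0.00121 to 0.0125 over the 24 fits. The counts of members in this paragraph stand without the share of all genes called in the same fits. That share itself changed between fits. In the averaged LPS contrast it was 26.2% in the main fit, 17.3% with Ttr and 19.7% with thalamus markers. It was 22% with age and 19.4% with surrogate variables. A lower or higher count of members therefore cannot be read as a result about the members.

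The olfactory bulb covariate, chosen after seeing the data, ended both calls of Grik3 (-0.103, adjusted p = 0.0728, in control mice and -0.080, adjusted p = 0.0545, averaged). Surrogate variables ended the averaged calls of Gabrg3 (0.066, adjusted p = 0.206), Gabrd, Grik3 and Gabra6, but not of Gabrr2 (0.55, adjusted p = 0.0168), and added Grin2a (0.20), Grin2b (0.14), Grm3 (-0.12) and Grm4 (-0.82). The cause was not tested. Grik3 in control mice kept its call only without unstimulated control replicate 1 or control LPS replicate 5 or 6. Averaged Gabrd lost its call without control LPS replicate 1, 3 or 4, unstimulated control replicate 1, 2 or 5, unstimulated labelled replicate 2, 4 or 6, or labelled LPS replicate 2 or 4. Averaged Gabrg3 lost it without control LPS replicate 1, 3, 4 or 6, unstimulated control replicate 1, 5 or 6, unstimulated labelled replicate 2, 4, 5 or 6, or labelled LPS replicate 1, 3 or 4. Depth limits Gabra6, Gabrr1, Gabrr2 and Gabre. No paired analysis was possible because replicate numbers only name libraries.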
